A study of Mus musculus with 24 samples.

Results

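The 10 genes followed here belong to the tissues that cover the cerebellum or lie in the ventricle beneath it, and were measured in 24 libraries of mouse cerebellum: Ttr, Kl, Folr1 and Otx2 of the choroid plexus, Col1a1, Col1a2, Dcn and Lum of fibroblasts, and the imprinted neighbours Igf2 and H19. The genes were listed by name as a gauge of which tissue was taken at dissection, by a rule that names genes and sets no threshold on their values, and all 10 of the 10 were found among the 43430 genes counted and had enough counts to be tested with 15300 genes in all. Whole cerebellum was taken from 6 mice per group, 3 males and 3 females of about 7 weeks, and polyA RNA was sequenced. Mice labelled cKO have a conditional gene deletion that impairs mitochondrial complex I in brain, those labelled NDI1 control express NDI1, a yeast NADH dehydrogenase that regenerates NAD+, and those labelled cKO+NDI1 have both. Mice labelled Cre control form the fourth genotype group. The labels name neither the deleted gene nor the promoter that drives Cre, and do not say which of these alleles the NDI1 control mice share with the others.

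The choroid plexus is a folded sheet of epithelium in the ventricles that makes cerebrospinal fluid, and the plexus of the fourth ventricle lies against the underside of the cerebellum. The meninges are layers of fibroblasts, collagen and vessels over the brain surface. Both can stay with a dissected cerebellum, and neither is neural tissue. The labels do not say how much of either was taken with these samples. The part of dissection in the values below was not tested. In whole-tissue RNA, fewer cells of a type and less RNA per cell cannot be told apart, and this holds for every level below.

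Each member has a known role. Ttr (transthyretin) carries thyroid hormone and retinol-binding protein and is the most abundant secreted product of choroid plexus epithelium. Kl encodes klotho, a co-receptor for the hormone FGF23. Folr1 is a folate receptor that moves folate into cerebrospinal fluid. Otx2 is a homeodomain transcription factor of choroid plexus epithelium that is also known from cerebellar granule cell precursors. Col1a1 and Col1a2 encode the chains of type I collagen, and Dcn (decorin) and Lum (lumican) encode small leucine-rich proteoglycans that bind collagen fibrils. Igf2 is a growth factor expressed from the paternal allele, and H19 is a noncoding RNA expressed from the maternal allele. In adult brain, Igf2 is known from choroid plexus, meninges and vessels.

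The promoters below are RefSeq windows of GRCm38.p6, from 250 bases before to 50 after a start, shown because their genes belong to the sets of members that moved together across libraries (Kl and Otx2 with Ttr, Col1a2 with Col1a1). Windows were present for 4 members, and the motifs searched on both strands were TAATCC, the letters bound by OTX2-type homeodomain proteins, CCAAT and TATAAA, and the matches found do not overlap. Capitals mark them. The Otx2 window at chr14:48665060-48665359 (-), the only 1 of 4 Otx2 windows with TAATCC, holds it on the opposite strand, with its first base at position -211 from the start. Of the others, 48667595-48667894 holds TATAAA at -192 and 48667459-48667758 holds CCAAT on the opposite strand at -70. The window 48662685-48662984 holds none. An Igf2 window, chr7:142658755-142659054 (-), also holds TAATCC on the opposite strand, at 11. The Col1a2 window at chr6:4505368-4505667 (+) holds CCAAT at -109 and, on the opposite strand, at 1. The Kl window at chr5:150952357-150952656 (+) holds none of these letters. Among 32851 promoters of the same length, 7.06% hold TAATCC, 37.4% CCAAT and 13.6% TATAAA.
Kl promoter: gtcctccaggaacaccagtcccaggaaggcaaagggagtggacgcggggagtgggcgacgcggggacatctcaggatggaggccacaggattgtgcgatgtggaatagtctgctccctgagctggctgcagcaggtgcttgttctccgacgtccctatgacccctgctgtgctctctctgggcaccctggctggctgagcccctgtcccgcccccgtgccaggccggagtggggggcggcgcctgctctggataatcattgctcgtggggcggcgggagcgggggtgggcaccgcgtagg
Otx2 promoter: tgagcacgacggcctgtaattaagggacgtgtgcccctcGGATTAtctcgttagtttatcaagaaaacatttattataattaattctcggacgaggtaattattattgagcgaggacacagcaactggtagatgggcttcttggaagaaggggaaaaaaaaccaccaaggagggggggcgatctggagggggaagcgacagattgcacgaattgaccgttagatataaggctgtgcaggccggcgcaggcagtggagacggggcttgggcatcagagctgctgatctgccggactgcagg
Col1a2 promoter: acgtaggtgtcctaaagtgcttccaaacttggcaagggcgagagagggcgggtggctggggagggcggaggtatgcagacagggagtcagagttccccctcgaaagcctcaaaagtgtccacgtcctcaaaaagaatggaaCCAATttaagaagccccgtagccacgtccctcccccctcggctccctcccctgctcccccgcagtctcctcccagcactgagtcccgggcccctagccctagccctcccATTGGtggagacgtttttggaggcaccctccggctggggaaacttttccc

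The transcripts of H19 and Igf2 also hold microRNA genes, which polyA libraries do not count: Mir675 lies in an H19 exon at chr7:142577064-142577147 (-), and Mir483 in an Igf2 intron at chr7:142654924-142654996 (-). The mature RefSeq sequences (GRCm38.p6), with the seed at bases 2 to 8 in capitals, share no seed.
mmu-miR-675-5p: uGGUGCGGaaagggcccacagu
mmu-miR-675-3p: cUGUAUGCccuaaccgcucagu
mmu-miR-483-5p: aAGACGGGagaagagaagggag
mmu-miR-483-3p: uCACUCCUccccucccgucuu

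By the deposited mm10 coordinates, Ttr lies at chr18:20665250-20674324 (+), Kl at chr5:150952607-150993809 (+), Folr1 at chr7:101858331-101870788 (-) and Otx2 at chr14:48657679-48667644 (-). Col1a1 lies at chr11:94936224-94953042 (+) and Col1a2 at chr6:4504814-4541543 (+). Dcn at chr10:97479500-97518162 (+) and Lum at chr10:97565501-97572703 (+) are neighbours, as are H19 at chr7:142575529-142578143 (-) and Igf2 at chr7:142650766-142666816 (-).

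Library totals ran from 7584374 to 19785264 counts. The lowest was a cKO+NDI1 library, and the lowest group median, 11547903, was that of cKO. The knockout is known for this study as one of Ndufs4, an accessory subunit of complex I. Ndufs4 stood at 95.4 ± 21.5 CPM in cKO (SD, n = 6, 67.1 to 133), 101 ± 15.2 in cKO+NDI1 (77.1 to 120), 134 ± 23.7 in Cre control (104 to 164) and 144 ± 41.8 in NDI1 control (106 to 199), where CPM is the count scaled to a common library total after TMM normalisation. These ranges overlap between groups, and a count over the whole gene need not fall when only part of it is deleted. The labelled tissue was checked on its own genes, and 9 cerebellar markers summed to between 7900 and 9620 CPM in every library. Markers of pineal gland were near 0, with sums of 0.188 to 0.894 CPM over 6 genes. The 11 listed genes of the hindbrain outside the cerebellum, mostly Hox genes, summed to 14.8 to 15.6 CPM in 3 libraries (Cre control M2, cKO+NDI1 M3 and cKO F3) and to at most 5.98 in the other 21. The comparisons between groups and sexes were therefore also run without those 3. Spreads and correlations below use all 24 libraries and were not computed without them.

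Ttr was by far the most abundant member and took between 0.103% and 0.407% of all counts in a library. Its level was 1050, 2020 and 4060 CPM (lowest, median, highest) in Cre control, 1510, 2940 and 3680 in NDI1 control, 1050, 2640 and 3580 in cKO, and 1220, 2260 and 3260 in cKO+NDI1. Low and high libraries occurred in every genotype, and the 4 groups overlapped almost fully.

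Folr1 followed the same libraries at a much lower level. It measured 6.03, 12.8 and 21.3 CPM in Cre control, 8.64, 16.3 and 22.4 in NDI1 control, 5.26, 14.2 and 18.3 in cKO and 8.35, 12.6 and 20.4 in cKO+NDI1. Kl had the widest range of the 10 members, at 12.2, 25.4 and 39.2 CPM in Cre control, 11.3, 28.4 and 55 in NDI1 control, 8.33, 32.3 and 40.7 in cKO and 12.9, 30 and 36.5 in cKO+NDI1. In both genes the spread lay inside the groups, which overlapped. Otx2 moved far less, with 14.3, 18.5 and 21.1 CPM in Cre control, 16.8, 20 and 21.7 in NDI1 control, 17.2, 20.5 and 22.4 in cKO and 15.1, 18.7 and 22.1 in cKO+NDI1. From lowest to highest library the level changed 3.87-fold for Ttr, 4.26-fold for Folr1 and 6.60-fold for Kl, but 1.57-fold for Otx2. Per kilobase of the longest annotated transcript, the mean levels ranked Ttr (2010 CPM per kb), Folr1 (10.4), Otx2 (7.43) and Kl (4.83).

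**Figure D1:**
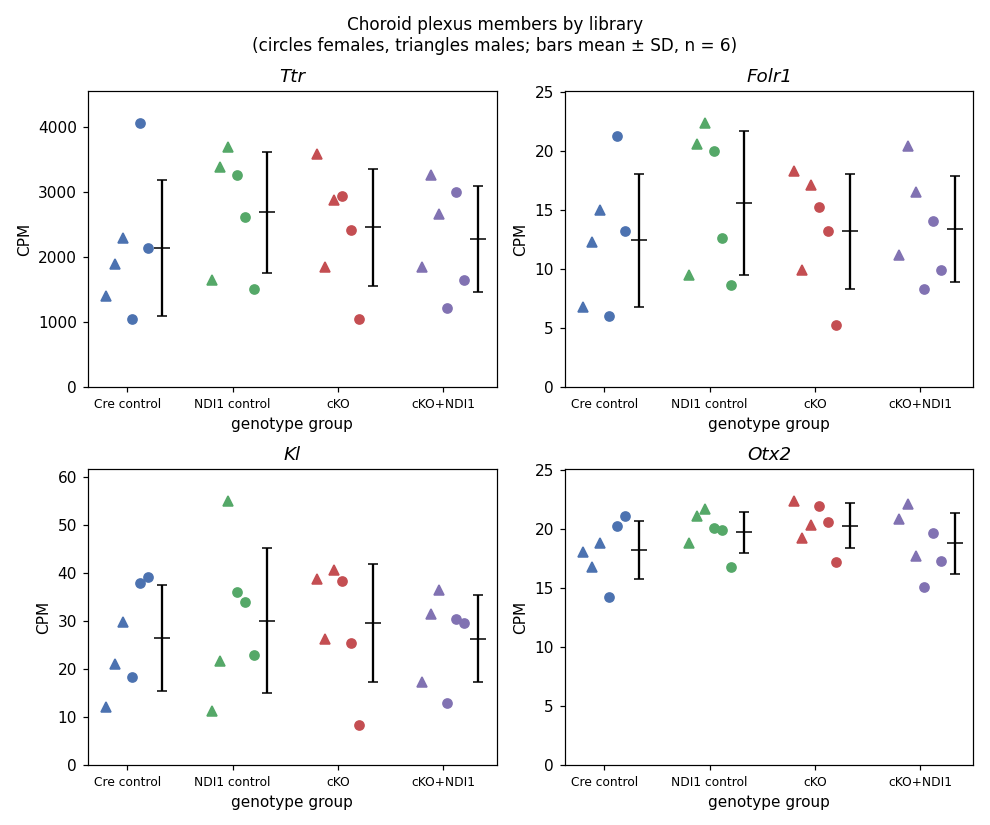
CPM of the 4 choroid plexus members in each library (y axis, from 0), by genotype group (x axis), with circles for females, triangles for males and bars for mean ± SD (n = 6). Ttr, Folr1 and Kl are spread widely within every group, from 1050 to 4060 CPM for Ttr, while Otx2 stays between 14.3 and 22.4 CPM.

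Fibroblast genes were steadier, with Col1a1 the exception. Col1a1 measured 16.3, 19.8 and 31.5 CPM in Cre control, 11.3, 21.4 and 28.5 in NDI1 control, 15.7, 20 and 36.8 in cKO and 14.6, 20.8 and 25 in cKO+NDI1. Col1a2 measured 52.8, 58.8 and 70.7 CPM in Cre control, 40, 57.6 and 65.0 in NDI1 control, 51.1, 56.9 and 79.2 in cKO and 45.8, 55.8 and 62.9 in cKO+NDI1. The same cKO male, M3, was highest of all 24 libraries for both collagen chains, and the same NDI1 control male, M2, was lowest.

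Dcn measured 31.1, 43.8 and 49.2 CPM in Cre control, 39.2, 48.1 and 66.7 in NDI1 control, 38.4, 40.2 and 54.5 in cKO and 38, 44.8 and 54.3 in cKO+NDI1. Its highest library was the NDI1 control male M2 in which both collagen genes were lowest. Lum measured 5.97, 9.43 and 12 CPM in Cre control, 8.83, 9.94 and 12.1 in NDI1 control, 8.01, 9.94 and 10.3 in cKO and 9.92, 12.8 and 14.5 in cKO+NDI1. For Lum, 5 of the 6 cKO+NDI1 libraries lay above every library of the other groups, and the sixth, M3, is 1 of the 3 libraries high in hindbrain genes. The other such libraries measured 9.94 CPM (Cre control M2) and 8.01 (cKO F3) for Lum. A link of Lum to hindbrain genes was not tested.

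Igf2 was the most even member at 169, 208 and 235 CPM in Cre control, 180, 210 and 220 in NDI1 control, 158, 174 and 200 in cKO and 185, 200 and 212 in cKO+NDI1. The cKO libraries sat low, and only their highest, M3 at 200, passed 180. H19 had few counts, 19 to 59 per library, and measured 1.40, 1.97 and 3.52 CPM in Cre control, 2.01, 2.60 and 3.51 in NDI1 control, 1.19, 2.51 and 3.31 in cKO and 1.56, 2.35 and 3.04 in cKO+NDI1. Its groups overlapped throughout.

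**Figure D2:**
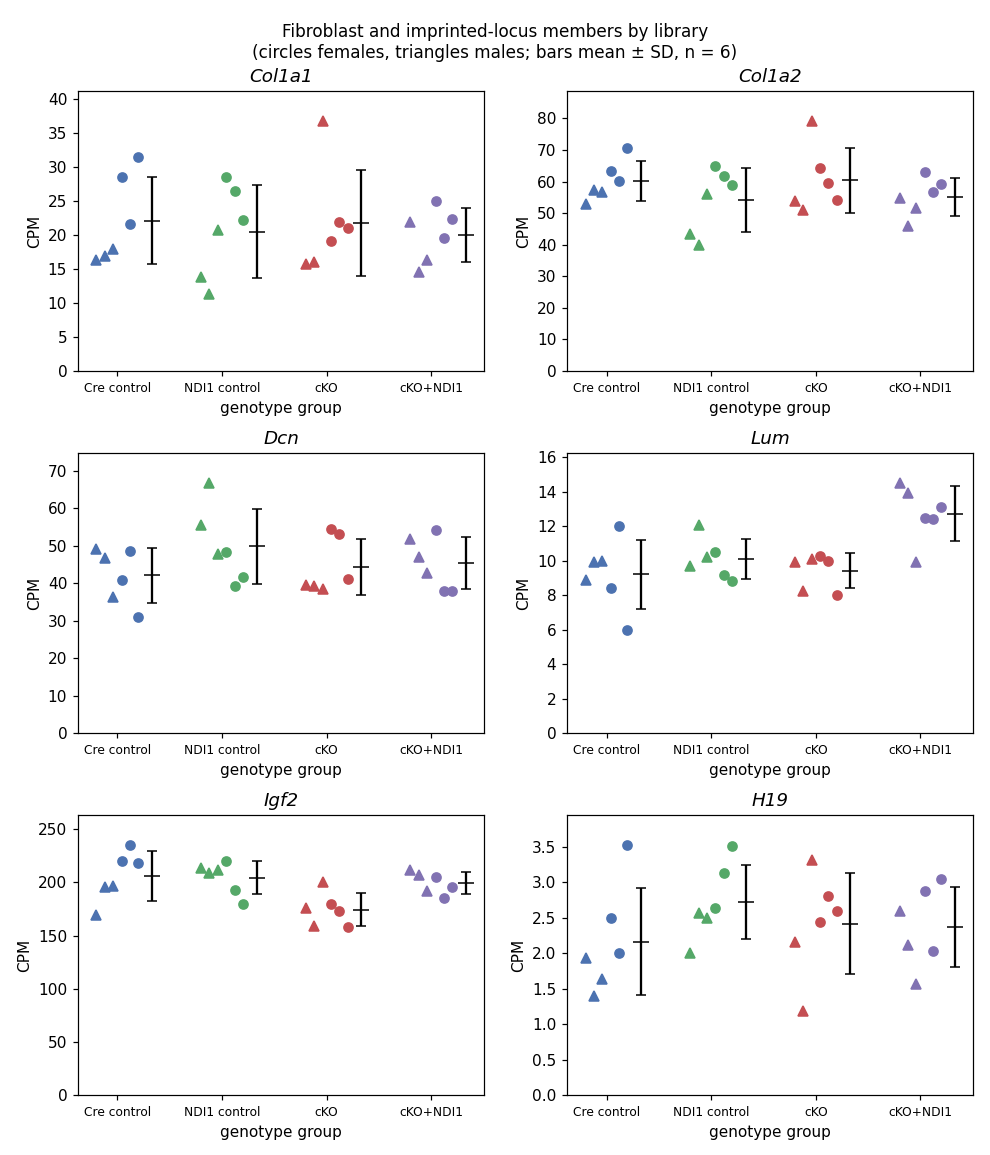
CPM of the fibroblast members and of Igf2 and H19 in each library (y axes, from 0), by genotype group (x axes), with circles for females, triangles for males and bars for mean ± SD (n = 6). Most cKO+NDI1 libraries are high for Lum, cKO libraries are low for Igf2, and the cKO male M3 stands at 36.8 CPM for Col1a1.

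Against all genes tested, Ttr, Kl and Folr1 were among the most variable between mice of 1 genotype. The within-group coefficient of variation (SD over mean, pooled over groups) was 38.8% for Ttr, 43.0% for Kl and 38.9% for Folr1, where the median gene had 15.2%. Among the 1000 genes nearest to each in level, these values lay at percentiles 99.7, 99.5 and 98.6. Otx2 had 11.4%, at percentile 38.4. Of the others, Col1a1 had 30.5% (percentile 98.2), H19 26.8% (66.9), Dcn 17.7% (78.0), Col1a2 14.7% (69.0), Lum 14.4% (46.6) and Igf2 8.48% (32.7). Differences between group means made up 5.79% of the variance of Ttr, 5% of Folr1 and 0.776% of Kl, where the median gene had 14.9%. For Lum and Igf2 the share was 45.6% and 42.4%. Another 16 choroid plexus genes had coefficients between 23.6% and 50.9%, with a median of 42.4%.

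**Figure D3:**
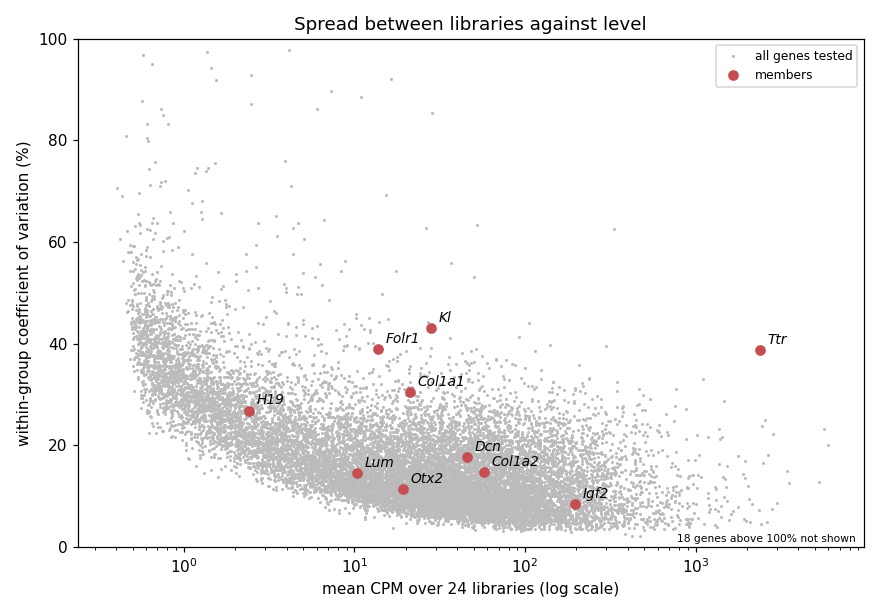
Within-group coefficient of variation (y axis, %, 18 genes above 100% left out) against mean CPM over the 24 libraries (x axis, log scale) for all genes tested (grey) and the members (red). Ttr at 38.8%, Kl at 43.0% and Folr1 at 38.9% lie above nearly all genes of their level, and Otx2 at 11.4% lies within the bulk.

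The choroid plexus members rose and fell together across libraries. Over the 24 libraries, log2 CPM of Ttr and Folr1 correlated with r = 0.967 and rho = 0.972 (permutation p = 1e-05, the smallest that 100000 permutations can give, adjusted p = 9e-05 over 45 pairs), and the ratio of Ttr to Folr1 varied only between 146 and 213. Without the 2 libraries farthest from the median of Ttr, r was 0.952, and with group means removed it was 0.970. Ttr and Kl correlated with r = 0.800 and rho = 0.761 (permutation p = 1e-05, adjusted 9e-05; r = 0.765 without the 2 farthest). Ttr and Otx2 correlated with r = 0.811 and rho = 0.767 (permutation p = 1e-05, adjusted 9e-05; r = 0.762 without the 2 farthest), although Otx2 covered only a small part of the range of Ttr. After the trends of each library with GC content and transcript length were removed, an alternative added after seeing the data, r of Ttr with Kl was 0.963, with Folr1 0.961 and with Otx2 0.816. Before that removal, the ratio of Ttr to Kl ran from 54.6 to 156 and that of Ttr to Otx2 from 61 to 200. Among pairs of these 4 members, Kl and Otx2 had the lowest r, 0.573 (rho = 0.612, permutation p = 0.00374, adjusted 0.021). All of Ttr, Kl and Folr1 were above their medians in 9 libraries and at or below them in 10, with 5 mixed. The 9 high libraries comprised 3 of cKO, 3 of cKO+NDI1, 2 of NDI1 control and 1 of Cre control, and the 10 low ones 2, 3, 2 and 3 in that order.

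Other choroid plexus genes followed Ttr. All 16 of 16 further choroid plexus genes had a positive r with Ttr over the 24 libraries, with a median of 0.863 and a range from 0.462 (F5, coagulation factor V) to 0.922 (Steap1). With Otx2 the median was 0.627. Among 13841 genes, those most like Ttr across libraries by r were Steap1 (0.922), Krt18 (0.914), Prr32 (0.914), Mfrp (0.898) and Calml4 (0.886), and those most like Kl were Enpp2 (0.958), Clic6 (0.940), Car12 (0.936), Ace (0.934) and Slc4a5 (0.932). Enpp2 encodes autotaxin, an enzyme that makes lysophosphatidic acid and is abundant in choroid plexus, and Slc4a5 is a bicarbonate transporter of its epithelium. For 7 genes of ependyma, the ciliated lining of the ventricles, the median r with Ttr was 0.328, and for 9 cerebellar genes it was 0.026. Libraries supply the points of all these values, which are given as descriptions.

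Fibroblast members did not form 1 set. Col1a1 and Col1a2 correlated with r = 0.922 and rho = 0.877 (permutation p = 1e-05, adjusted 9e-05; r = 0.870 without the 2 farthest libraries), and their ratio stayed between 2.15 and 3.54. Dcn and Lum correlated with r = 0.488 and rho = 0.317 (permutation p = 0.0155, adjusted 0.0775). The value weakened to r = 0.253 without the 2 libraries farthest from the median of Dcn, and with group means removed it was 0.598. Col1a1 and Dcn ran in opposite directions, r = -0.455 and rho = -0.351 (permutation p = 0.0253, adjusted 0.0949), and their ratio ranged 5.98-fold. This too weakened without the 2 farthest libraries (r = -0.246), and after GC and length trends were removed r was -0.118. Col1a1 and H19 correlated with r = 0.624 and rho = 0.754 (permutation p = 0.00112, adjusted 0.0072; r = 0.718 without the 2 farthest). Igf2 and H19, which share a locus, had r = 0.222 and rho = 0.165 (permutation p = 0.297, adjusted 0.535; r = 0.064 without the 2 farthest). Ttr and Col1a1, the plexus and the fibroblast gene, had r = -0.150 and rho = -0.237 (permutation p = 0.485, adjusted 0.753; r = -0.041 without the 2 farthest).

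**Figure D4:**
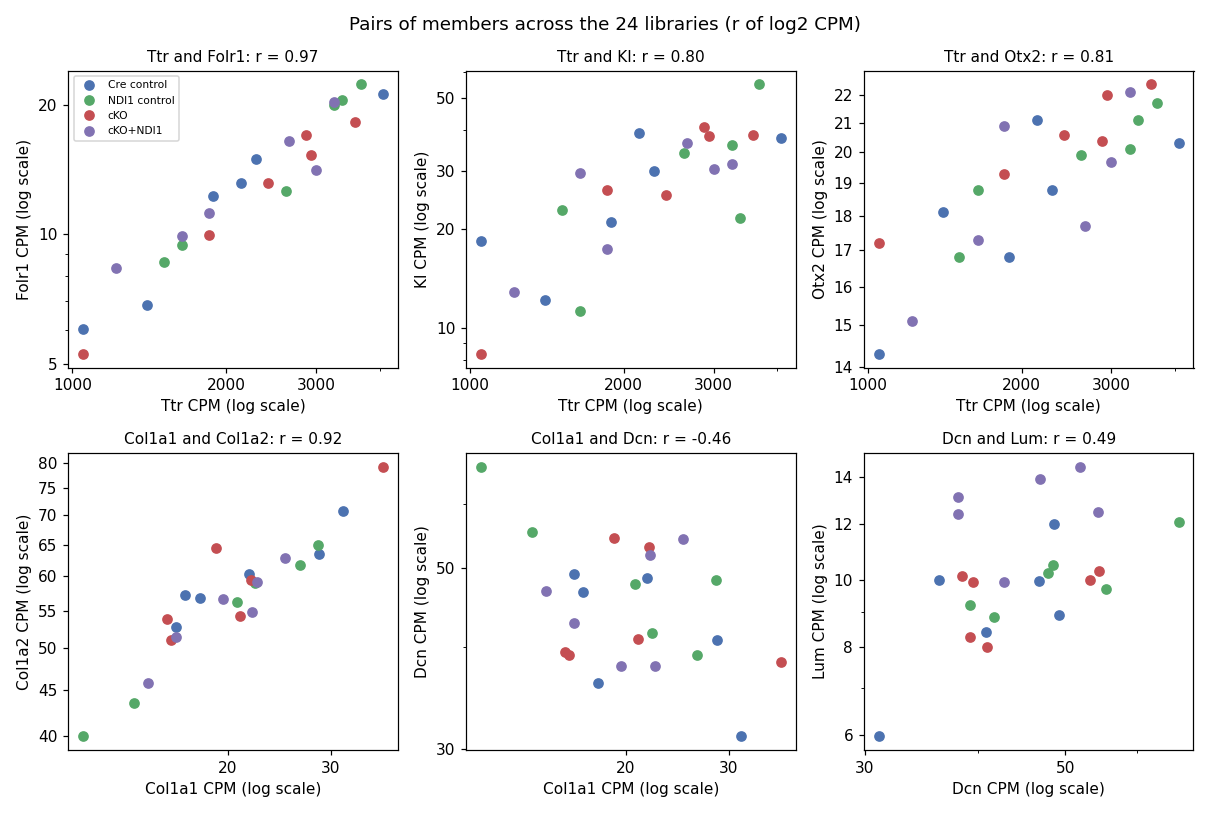
CPM of 6 pairs of members in the 24 libraries (both axes log scale), with 1 point per library coloured by genotype group. Ttr and Folr1 fall on a line (r = 0.967), as do Col1a1 and Col1a2 (r = 0.922), and colours mix along these lines. Col1a1 and Dcn have a negative r (-0.455), which was -0.246 without the 2 farthest libraries. In the panel of Dcn and Lum, most cKO+NDI1 libraries lie high for Lum.

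Some member levels moved with measures taken over whole libraries. For each library, the log2 level of every gene relative to its mean over the 24 libraries was fitted on transcript length and GC content together. The length slope and GC slope are the 2 coefficients of that fit. Of 40 relations computed between the members and 4 library measures, Dcn correlated with the length slope at r = -0.752 and rho = -0.701 (permutation p = 4e-05, adjusted 0.0016, r = -0.633 without the 2 farthest). Col1a2 had r = 0.714 and rho = 0.572 (permutation p = 0.00014, adjusted 0.0028; 0.528 without the 2 farthest), and Col1a1 had r = 0.658 and rho = 0.577 (permutation p = 0.00049, adjusted 0.00653; 0.493 without the 2 farthest). Kl had r = 0.539 and rho = 0.534 with the same slope (permutation p = 0.00659, adjusted 0.0435; 0.482 without the 2 farthest). With the slope on GC content, Col1a1 had r = 0.585 and rho = 0.502 (permutation p = 0.00264, adjusted 0.0211; 0.474 without the 2 farthest) and Col1a2 had r = 0.533 and rho = 0.444 (permutation p = 0.00761, adjusted 0.0435; 0.477 without the 2 farthest). For Dcn the value with the GC slope was r = -0.185 and rho = -0.179 (permutation p = 0.385, adjusted 0.828; -0.105 without the 2 farthest). The GC content of the longest transcript is 58.9% for Col1a1, at percentile 92.7 of genes tested, and 37.4% for Dcn, at percentile 1.48. In length these transcripts are closer, at 5930 bases for Col1a1, 5348 for Col1a2 and 4692 for Dcn. The part of these slopes in the opposite movement of collagen and decorin was not tested beyond the corrected values above. Col1a1 had a positive r with 9 of 18 further fibroblast genes (median -0.033), Dcn with 14 (median 0.297) and Lum with 17 (median 0.337). The genes most like Col1a1 were Adam19 (r = 0.901), Kank1 (0.897), Col4a2 (0.883), Col4a1 (0.872) and Tango6 (0.861), of which Col4a1 and Col4a2 encode basement membrane collagen.

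The comparison of cKO with Cre control asks what the knockout changed. None of the 10 members passed edgeR's quasi-likelihood test at an adjusted p of 0.05, where 4.87% of all genes tested did, 3.06% higher and 1.81% lower. One member, Igf2, was under an unadjusted 0.05, as were 18.5% of all genes, DESeq2 called that member as well, and limma-voom called 0. Igf2 was lower in cKO by a log2 fold change of -0.24 (SE 0.075, adjusted p = 0.065 by edgeR, fold 0.847), with levels of 174 ± 15.5 CPM in cKO and 206 ± 23.4 in Cre control (SD, n = 6). It passed with DESeq2 (adjusted p = 0.0251), in females alone (-0.41, adjusted 0.0426), with GC and length correction (-0.30, adjusted 0.0147), without Cre control M1 (-0.30, adjusted 0.0144) and without cKO M3 (-0.29, adjusted 0.0238) in edgeR. In males alone the value was -0.08 (adjusted p = 0.652, edgeR). The difference between the sexes was not tested. Across libraries, Igf2 fell as the share of mitochondrial counts rose (r = -0.598, rho = -0.584, permutation p = 0.00231, adjusted 0.0211 over 40 relations). Without the 2 farthest libraries r was -0.483, and with group means removed it was -0.441. The mitochondrial share was 2.07% to 3.35% in cKO and 1.48% to 2.23% in Cre control. Its part in the Igf2 difference was not tested.

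For the choroid plexus members the interval of the change was wide. Ttr differed by a log2 of 0.18 (SE 0.312, 95% interval -0.48 to 0.83, edgeR adjusted p = 0.839; 0.50 without Cre control F2, its highest library), Kl by 0.15 (-0.61 to 0.91) and Folr1 by 0.04 (-0.61 to 0.70), and each of these intervals reaches at least 0.48 to either side of 0. In females alone the values were negative, at -0.185 for Ttr, -0.435 for Kl and -0.285 for Folr1. Over all libraries, Otx2 was measured more tightly at 0.15 (-0.05 to 0.36, adjusted p = 0.436). Col1a1 differed by 0.03 (-0.39 to 0.45), Col1a2 by 0.01 (-0.20 to 0.23), Dcn by 0.08 (-0.21 to 0.36), Lum by 0.03 (-0.24 to 0.30) and H19 by 0.16 (-0.26 to 0.58). Each adjusted p among these was between 0.436 and 0.971. Without the 3 libraries high in hindbrain genes, 0 members passed here, and 0 in each of the other comparisons below.

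**Figure D5:**
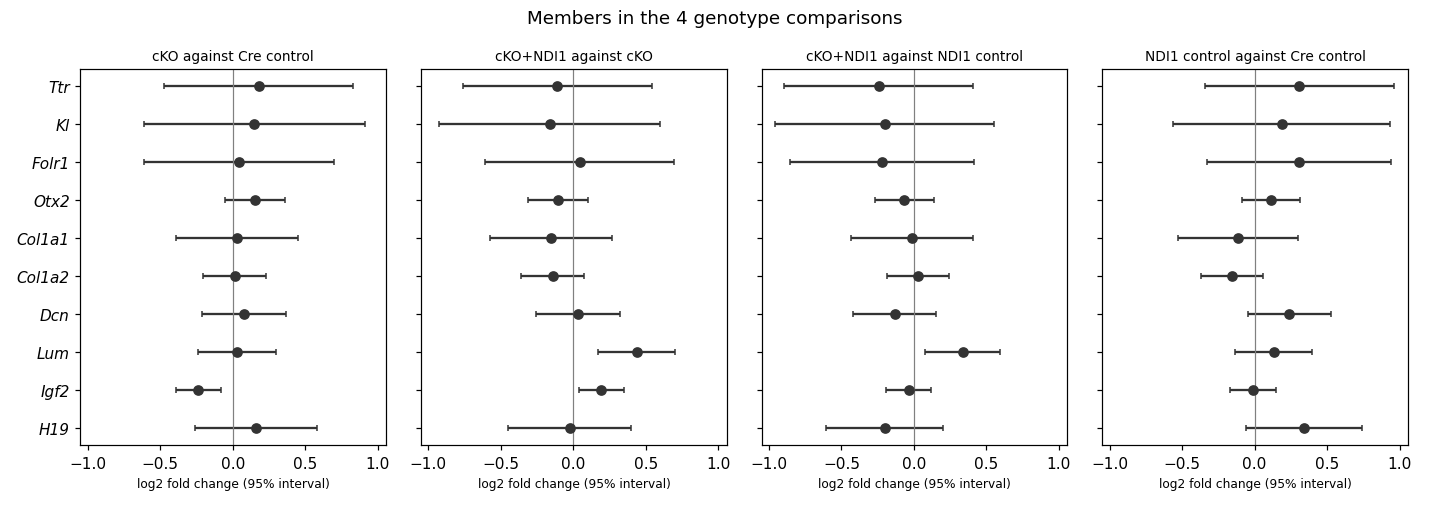
Log2 fold changes of the 10 members (points) with 95% intervals (bars) in the 4 genotype comparisons. Igf2 in cKO against Cre control (-0.24), Lum and Igf2 in cKO+NDI1 against cKO (0.44 and 0.19) and Lum in cKO+NDI1 against NDI1 control (0.34) have intervals that leave out 0, and no member passed after adjustment over all genes.

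The comparison of cKO+NDI1 with cKO asks what NDI1 changed in the knockout. Again 0 of 10 members passed in edgeR, where 0.209% of all genes did; 2 members and 8.56% of all genes were under an unadjusted 0.05, and DESeq2 and limma-voom called 0. Lum was higher in cKO+NDI1 by a log2 of 0.44 (SE 0.127, fold 1.35, unadjusted p = 0.00225 and adjusted p = 0.213 in edgeR), with 12.7 ± 1.59 CPM against 9.43 ± 1.01 (SD, n = 6). Of the 6 cKO+NDI1 libraries, 5 were above the highest cKO library, and the adjusted p with DESeq2 was 0.0802. Igf2 was higher by 0.19 (SE 0.075, edgeR adjusted p = 0.415), at 200 ± 10.2 CPM against 174 ± 15.5. Ttr differed by -0.11 (SE 0.311, adjusted p = 0.953). This comparison and the one before share the cKO libraries.

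In cKO+NDI1 against NDI1 control, the effect of the knockout in mice that all express NDI1, edgeR called 0 members and 0% of all genes, while 1 member and 686 genes (4.48%) were under an unadjusted 0.05. DESeq2 called 0 members and 25 genes, and limma-voom called none of either. Lum was the member under 0.05, higher in cKO+NDI1 by 0.34 (SE 0.124, edgeR adjusted p = 0.885), and Ttr differed by -0.24 (SE 0.311, adjusted p = 0.998). In NDI1 control against Cre control, 0 members passed in edgeR where 0.00654% of all genes did, 0 members and 9.2% of all genes were under an unadjusted 0.05, and DESeq2 and limma-voom called 0 members. H19 differed there by 0.34 (SE 0.191, adjusted p = 0.593), Ttr by 0.31 (SE 0.312, adjusted p = 0.741; 0.64 without Cre control F2) and Dcn by 0.24 (SE 0.136, adjusted p = 0.595). In the interaction, the knockout's change with NDI1 minus its change without, edgeR called 0 members and 0% of all genes, with 0 members and 792 genes (5.18%) under an unadjusted 0.05; DESeq2 called 0 members and 13 genes and limma-voom none of either. The interaction was -0.42 for Ttr (SE 0.440, adjusted p = 1; -0.75 without Cre control F2), 0.31 for Lum (SE 0.179, adjusted p = 1) and 0.20 for Igf2 (SE 0.105, adjusted p = 0.979).

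Between the sexes, 0 of 10 members passed in edgeR, where 0.085% of all genes did (0.0392% higher in males, 0.0458% lower); 3 members and 16.9% of all genes were under an unadjusted 0.05, and DESeq2 and limma-voom called 0. Col1a1 was lower in males by a log2 of -0.41 (SE 0.142, edgeR adjusted p = 0.291), at 18.2 ± 6.51 CPM in 12 males and 24.0 ± 3.96 in 12 females. Col1a2 was lower by -0.20 (SE 0.073, adjusted p = 0.291), at 53.6 ± 9.75 against 61.4 ± 4.30 CPM. H19 was lower by -0.42 (SE 0.139, adjusted p = 0.291), at 2.08 ± 0.598 against 2.76 ± 0.494 CPM. For Col1a1, all 3 males of the Cre control (16.3 to 17.9) and of the NDI1 control (11.3 to 20.7) lay below the females of their group (21.7 to 31.5 and 22.2 to 28.5), whereas in cKO+NDI1 the sexes overlapped (14.6 to 22 and 19.6 to 25) and in cKO the male M3 lay above every female. Without that library, both collagen genes passed in edgeR, Col1a1 at -0.55 (adjusted p = 0.0114) and Col1a2 at -0.27 (adjusted p = 0.0415). The median length slope was 0.0508 in females and -0.0247 in males (log2 per doubling of length), and with GC and length correction Col1a1 differed by -0.30 (adjusted p = 0.301) and Col1a2 by -0.12 (adjusted p = 0.338) in edgeR; the part of these slopes was not tested further.

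Related genes gave the setting of these values in cKO against Cre control, with every adjusted p from edgeR over all 15300 genes. Of 16 further choroid plexus genes, 0 passed in either direction and 0 were under an unadjusted 0.05, with a median log2 change of 0.05 beside -0.007 over all genes. DESeq2 and limma-voom were not counted over these lists. In NDI1 control against Cre control all 16 had positive values (median 0.20, 0 passed), and in cKO+NDI1 against NDI1 control 14 of 16 had negative values (median -0.23, 0 passed). These genes move together from library to library, as above, so they are not 16 independent signs, and both comparisons share the NDI1 control libraries.

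Among 18 further fibroblast genes, 1 rose and 1 fell in cKO, where 3.06% of all genes rose and 1.81% fell, and the median of the 18 was -0.07. Mgp, a matrix protein of vessels and fibroblasts that inhibits calcification, rose by a log2 of 0.68 (SE 0.162, adjusted p = 0.0151), from 53.9 ± 15 to 85.7 ± 13.5 CPM (SD, n = 6). Slc22a8, an organic anion transporter also known from choroid plexus and brain endothelium, fell by 0.38 (SE 0.093, adjusted p = 0.0183). Of 12 partners of fibrillar collagen, 2 rose: Bmp1, a protease that trims procollagen, by 0.73 (SE 0.114, adjusted p = 0.000706), from 55.5 ± 6.10 to 92.4 ± 11.1 CPM, and Sparc, a collagen-binding glycoprotein also made by glia and endothelium, by 0.25 (SE 0.072, adjusted p = 0.0486). In cKO+NDI1 against cKO, Sparc fell by 0.41 (SE 0.072, adjusted p = 0.0125), from 1800 ± 128 to 1360 ± 118 CPM. Of 9 IGF receptors and binding proteins, Igfbp7, also made by vessels, rose in cKO by 0.39 (SE 0.106, adjusted p = 0.0346), and the other 8 did not pass. Of 8 other imprinted genes and 8 tested partners of retinol, thyroid hormone, folate and klotho, 0 passed.

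Vessels share tissue with the fibroblast members, and 5 of 21 vessel genes rose in the same comparison, where 3.06% of all genes did; 16 did not pass. Among 11 pericyte and smooth muscle genes, 4 rose in cKO against Cre control: Acta2 by 0.85 (SE 0.146, adjusted p = 0.00154), Cnn1 by 1.07, Myh11 by 0.77 and Rgs5 by 0.25. Of 10 endothelial genes, 1 rose, Pecam1 by 0.76 (SE 0.089, adjusted p = 0.000151). The summed pericyte and smooth muscle level was 355 to 439 CPM for Cre control libraries, 402 to 453 for NDI1 control, 437 to 487 for cKO and 429 to 511 for cKO+NDI1. The summed level of the 4 fibroblast members was 121 to 143, 122 to 152, 115 to 165 and 120 to 155 CPM in the same order. That of the 4 choroid plexus members was 1090 to 4140, 1560 to 3780, 1080 to 3660 and 1260 to 3330 CPM. Blood genes, 5 in all, summed to 189 to 1580 CPM over the libraries with overlapping ranges in all groups. Whether vessel content has a part in Mgp or in any member was not tested.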

How the data were processed

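Whole cerebellum of 24 mice was sequenced as polyA RNA, 1 library per mouse per the labels. The submitters' processing notes list STAR, HTSeq, Trimmomatic and bcl2fastq and the build mm10; versions, strand setting and annotation are not given in the sources used here. The deposited table holds raw counts per gene, whole and not normalized by the authors. Its length column exceeds the gene's span for 1982 of 43430 genes and was not used; lengths and GC content are those of the longest GENCODE M21 transcript (GRCm38), the source of symbols for 42462 genes. No duplicate library was found: over 60 pairs within groups, chi-square divided by its degrees of freedom was at least 4.67. The labels give no batch.

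Counts were filtered with filterByExpr by group, scaled by TMM and tested with edgeR's quasi-likelihood test (edgeR 4.0.16, R 4.3.3, limma 3.58.1). All 24 libraries entered 1 model with terms for group and sex. Benjamini-Hochberg adjustment ran over 15300 genes, with a threshold of 0.05. Intervals are 95%. Correlations used log2 CPM with a prior count of 2 and two-sided permutation tests. On simulated data, the test recovered 51% of changes of log2 0.5 and 91% of changes of log2 1 in cKO against Cre control, over 15218 genes, with 6 false calls. The changed genes were drawn at random, so these shares describe genes in general. Recovery was not computed for the members, of which Ttr, Kl, Folr1 and Col1a1 vary more than most genes. Alternatives were DESeq2 1.42.0, limma-voom, other scalings, no filter, thinned counts, no sex term, 1 sex, only the groups compared, a replicate block and leaving out each library. GC and length correction, and leaving out 3 libraries high in hindbrain genes, were added after seeing the data. The members and lists were chosen with earlier results of these data known. Named outside the members were the 5 genes most like a member by r, the lists' genes that passed, and, chosen after their values were seen, Ndufs4 and F5. H19 and Igf2 counts could include reads of overlapping or antisense transcripts, since no strand setting is stated.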

Additional observations from a re-analysis of the deposited data

Results flagged for a closer look

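Of 40 groups of 6 libraries (10 members in 4 genotypes), 1 held a library far from the others, where chance gives about 2.0. It was Col1a1 in cKO replicate M3, at 36.8 CPM beside 21.9 in the nearest other cKO library. The gap took a share of 0.706 of the group's range, above the 95% critical value of Dixon's test. Col1a2 was also highest in that library, at 79.2 CPM, and H19 at 3.31 CPM was the highest of its group.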

How the results depend on the processing

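The count of members past the threshold in cKO against Cre control was 0, and 1 (Igf2) with DESeq2, in females only, and with GC and length correction; leaving out each library gave 0 to 1. Between the sexes leaving out each library gave 0 to 2. Every other comparison kept 0 members under every alternative run. In cKO against Cre control, the values of all members except Igf2 and Otx2 changed sign in at least 1 alternative. In females only, the log2 change was -0.408 for Col1a1, -0.138 for Col1a2, -0.285 for Folr1, -0.048 for H19, -0.435 for Kl and -0.185 for Ttr. In males only it was -0.182 for Dcn and -0.049 for Lum. With GC and length correction it was -0.074 for Col1a1 and -0.052 for Col1a2, with limma-voom -0.051 and -0.007, and for Col1a1 -0.022 with no sex term. With the replicate block it was -0.006 for Col1a1 and 0 for Col1a2. Leaving out each library gave -0.269 to 0.111 for Col1a1, -0.114 to 0.059 for Col1a2, -0.115 to 0.309 for Folr1, -0.027 to 0.312 for H19, -0.027 to 0.363 for Kl, -0.065 to 0.132 for Lum and, in cKO+NDI1 against cKO, -0.256 to 0.02 for Ttr. For Ttr the range was 0.047 to 0.501 in cKO against Cre control, 0.18 to 0.643 in NDI1 control against Cre control and -0.748 to -0.286 in the interaction. The cause was not tested.

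Counts over all genes moved more. In cKO against Cre control 745 genes passed, beside 1157 with DESeq2, 1392 with GC and length correction, 425 with no filter, 373 with thinned counts, 263 with only the groups compared, 364 in females, 38 in males and 347 without the 3 libraries high in hindbrain genes. For cKO+NDI1 against cKO, 32 became 107, 89, 21, 13, 13, 2, 2 and 18 in the same order. For cKO+NDI1 against NDI1 control, 0 became 25 with DESeq2 and 20 with GC and length correction, in NDI1 control against Cre control 1 became 79 and 21, and between the sexes 13 became 38 and 22. The smaller sets have fewer samples. Leaving out each library gave 504 to 914 genes in cKO against Cre control, 10 (without cKO+NDI1 M2) to 42 for cKO+NDI1 against cKO, 0 to 3 against NDI1 control, 1 to 37 (without NDI1 control M3) in NDI1 control against Cre control, 0 to 4 in the interaction and 10 to 33 (without cKO M3) between the sexes.

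The replicate labels (M1 to F3) were not used to pair libraries. Deviations of same-label libraries from their group means correlated between -0.298 and 0.645 over 36 pairs, with 23 above 0.1. Same-label libraries are always of the same sex, which these deviations keep. The values therefore cannot tell a shared replicate from a shared sex. With the replicate block, 754 genes passed in cKO against Cre control, 20 between cKO+NDI1 and cKO, 0 between cKO+NDI1 and NDI1 control, 2 in NDI1 control against Cre control and 0 in the interaction, and no member passed. Depth limits H19 most, at 19 to 59 counts per library.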
